A study of Homo sapiens with 7 samples.

Results

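The 57 genes described here encode homeobox transcription factors of embryonic development that lie outside the HOX clusters. They were chosen by name, as 57 of the 20163 protein-coding genes annotated on chromosomes 1 to 22, X and Y of hg19, and no peak value enters the rule, although the group was proposed with earlier results of these data known. They comprise 8 LHX and 2 ISL genes, 7 NKX, 6 DLX, 5 genes from SIX2 to SIX6, 6 IRX, 4 EMX and OTX, 2 MSX, 4 GSX and VAX, 4 BARX and BARHL and 4 POU genes, together with EN1, EN2, GBX2, PITX1 and ALX4. For each gene, every peak that overlapped its body or lay within 5 kb of its transcription start site (TSS) was collected from the deposited lists. This gave 256 of the 240889 intervals, and 122 of the 256 passed the limits on q-value and fold enrichment given below.

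The lists come from PIXUL-ChIP-seq of HCT116, an established human colorectal carcinoma line, with no treatment named in the labels. PIXUL is a sonicator that shears the chromatin of a whole 96-well plate. Each well held 200000 crosslinked cells in a volume of 100 µl and received 6 min of ultrasound. Each antibody, against H3K4me1, H3K4me3, H3K9Ac, H3K27me3, H3K36me3 or CTCF, was used on 1 well and gave 1 library, and H3K27Ac was not analysed here. A peak of H3K4me1 or H3K27me3 was said to pass the limits if its fold enrichment exceeded 2 and its q-value was under 1e-03. For any other mark these limits were 5 and 1e-10.

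Homeobox factors bind DNA through a conserved homeodomain and assign identity to regions and cell types of the embryo, so most of them are silent in any given adult tissue. Many of their promoters are rich in CpG dinucleotides and are known targets of Polycomb complexes, which place H3K27me3 over broad domains, whereas H3K4me3 and H3K9Ac mark active or poised promoters. H3K4me1 is found at enhancers and promoter flanks, H3K36me3 follows transcription through gene bodies, and the zinc-finger protein CTCF binds a long DNA motif at insulators and loop anchors.

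Promoter sequence is shown for 1 gene of each class of start that held a member, because these starts were marked very differently. The 3 runs are the 200 bases before the TSS, read 5′ to 3′ on the coding strand of hg19, with every CpG in capitals. GBX2 (chr2:237077030-237077229, minus strand) had the highest H3K4me3 of the members, and its run holds 23 CpG and lies in an intron of the antisense RNA gene GBX2-AS1. OTX2 (chr14:57277198-57277397, minus strand) was the sole member with H3K27me3 past the limits within 1 kb of the TSS. Its run holds 6 CpG and lies in an intron of longer OTX2 transcripts. NKX6-2 (chr10:134599652-134599851, minus strand) had no interval in any list, and its run holds 34 CpG and lies outside annotated genes.
GBX2: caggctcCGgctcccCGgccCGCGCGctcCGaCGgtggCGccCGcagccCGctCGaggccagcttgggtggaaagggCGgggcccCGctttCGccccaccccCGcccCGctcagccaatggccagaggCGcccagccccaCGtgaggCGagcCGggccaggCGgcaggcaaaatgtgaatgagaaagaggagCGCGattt
OTX2: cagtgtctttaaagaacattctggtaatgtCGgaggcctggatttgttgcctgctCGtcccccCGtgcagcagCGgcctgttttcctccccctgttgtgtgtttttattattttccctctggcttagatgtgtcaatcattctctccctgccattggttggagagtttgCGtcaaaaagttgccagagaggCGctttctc
NKX6-2: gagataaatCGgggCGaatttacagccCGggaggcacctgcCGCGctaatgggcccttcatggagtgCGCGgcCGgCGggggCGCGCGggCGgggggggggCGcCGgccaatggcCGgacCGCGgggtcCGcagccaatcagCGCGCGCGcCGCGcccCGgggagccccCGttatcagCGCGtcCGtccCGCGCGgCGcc

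For CTCF, the sequences that carry a finding are the windows around the only matches to the CTCF core pattern in peaks past the limits at these genes. The pattern has 12 positions, some of which accept either of 2 bases, so the matches shown in capitals differ from each other. It was searched on both strands with no mismatch. The DLX2 window (chr2:172968739-172968778, minus strand) places the core at 172968753 to 172968764, 1131 bp upstream of the TSS, and overlaps the end of an exon of the long non-coding RNA gene DLX2-DT. In the DLX3 window (chr17:48075757-48075796, minus strand), the core lies at 48075771 to 48075782, 3189 bp upstream of the TSS and in an intron of the long non-coding RNA gene ENSG00000248172.
DLX2: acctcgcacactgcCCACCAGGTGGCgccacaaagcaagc
DLX3: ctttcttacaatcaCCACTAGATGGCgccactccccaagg

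With 1 library per mark there is no replicate error, so no difference was tested. The 95% Wilson intervals given for shares describe counting error alone, and the depth of the libraries is unknown because the lists hold no read counts. Fold enrichments are linear ratios over background within 1 library and were not compared between marks. The label of the line was set beside H3K4me3 within 1 kb of the TSS of marker genes: 5 of 10 colon epithelial markers had a peak (CDX2, CDH1, EPCAM, KRT8 and KRT18), as did 1 of 7 markers of other cell types (COL1A1). GPA33, KRT20, LGALS4, VIL1 and CDH17 had none. PECAM1, planned as a further marker of other cell types, was not among the 7.

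**Figure D1:**
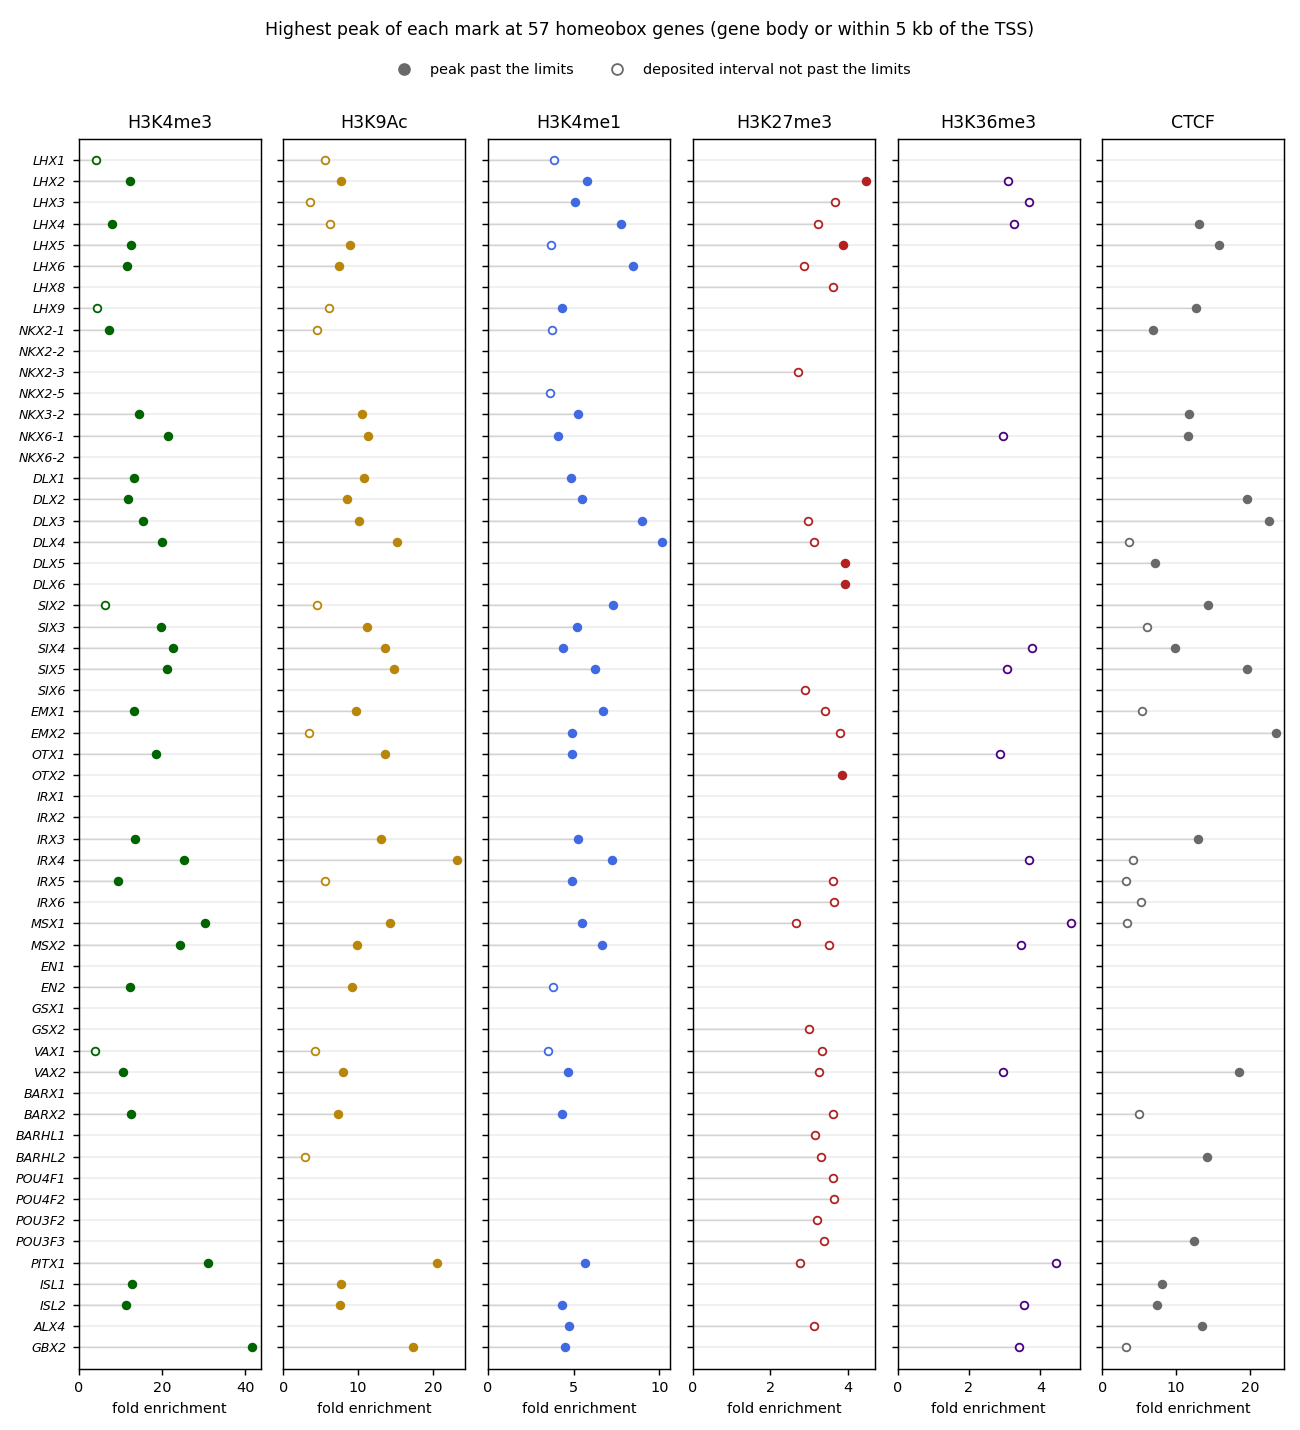
Fold enrichment (linear, x axis, a separate scale for each mark) of the highest interval of each mark in the body or within 5 kb of the TSS of each of the 57 genes (rows). Filled points passed the limits and open points did not; H3K4me3 reached 41.6 at GBX2, H3K27me3 points are open except at 5 genes, and all H3K36me3 points are open.

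At least 1 of the active marks H3K4me3, H3K9Ac and H3K4me1 was found past the limits at 33 of the 57 homeobox genes (57.9%, 95% Wilson interval 45.0 to 69.8%), against 75.1% of all protein-coding genes. In the gene body or within 5 kb of the TSS, H3K4me3 was present at 28 of 57 members (49.1%, 95% Wilson interval 36.6 to 61.7%), where 64.7% of all protein-coding genes had it. H3K9Ac was present at 25 members (43.9%, 31.8 to 56.7%; all genes 64.1%) and H3K4me1 at 29 (50.9%, 38.3 to 63.4%; all genes 66.4%). CTCF was present at 20 members (35.1%, 24.0 to 48.1%; all genes 48.9%). H3K27me3 was present at 5 members (8.77%, 3.81 to 18.9%; all genes 3.22%). H3K36me3 was past the limits at 0 members, which allows a share of up to 6.31%, and at 0.59% of all genes. The members are short, with a median length of 5703 bp against 27219 bp for all genes, so their bodies offer less length for a peak to overlap.

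Close to the TSS, where gene length plays no role, H3K4me3 was found within 1 kb at 25 members (43.9%; all genes 59.1%), H3K9Ac at 24 (42.1%; all genes 58.5%) and H3K4me1 at 23 (40.4%; all genes 49.1%). H3K27me3 past the limits was found there at 1 member, OTX2 (1.75%; all genes 1.22%), and H3K36me3 at 0 (all genes 0.298%). CTCF was found there at 2 members, DLX2 and SIX5 (3.51%, 0.968 to 11.9%; all genes 13.6%). With all deposited CTCF intervals it was 10 members (17.5%; all genes 29.5%). The 79 other homeobox genes outside HOX had CTCF shares near those of the members, 2.53% past the limits and 16.5% with all deposited intervals.

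**Figure D2:**
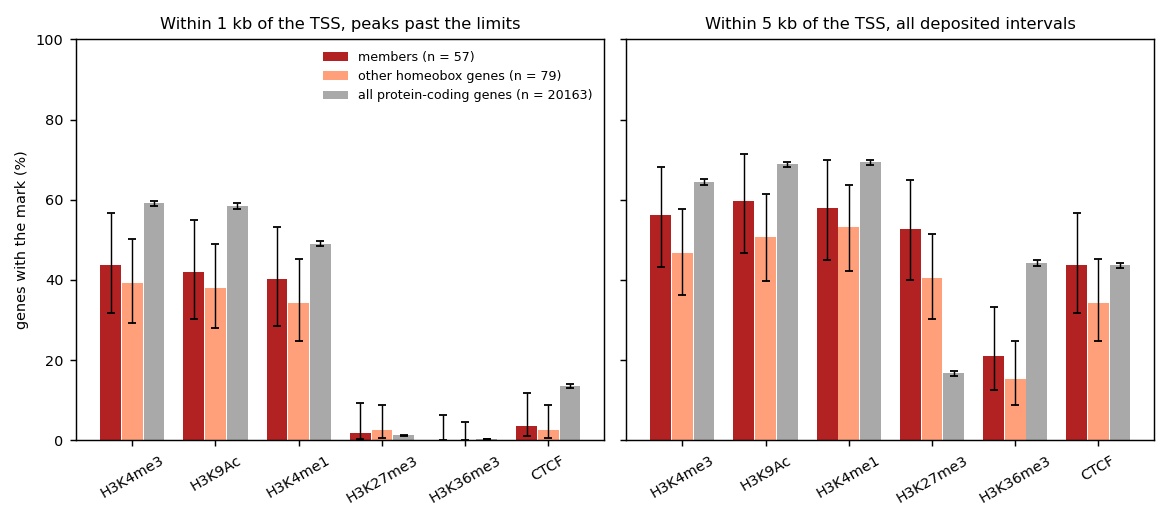
Percentage of genes (y axis, from 0 to 100) with each mark, for the 57 members, 79 other homeobox genes outside HOX and all 20163 protein-coding genes; error bars are 95% Wilson intervals. Left, peaks past the limits within 1 kb of the TSS, where 43.9% of members had H3K4me3; right, all deposited intervals within 5 kb, where 52.6% of members had H3K27me3.

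The 25 starts with H3K4me3 spanned nearly every family. The peak covered the TSS itself at 24 of them. GBX2, a factor of the midbrain-hindbrain boundary, had the highest fold enrichment, 41.6 (−log10 q-value 155), in a peak from 703 bp upstream to 1546 bp downstream of the TSS. PITX1, which specifies hindlimb identity, followed with 31.0, and MSX1, a target of BMP signalling in craniofacial and tooth development, with 30.2. These 3 values lay above the upper quartile of all protein-coding genes with such a peak, 27.8. Next came IRX4 (25.3), a ventricular heart factor, and MSX2 (24.4), the paralogue of MSX1 in skull and skin. SIX4 (22.6), a muscle and sensory organ factor, was the last member above the median of all genes, 22.5.

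The other 19 lay below that median. NKX6-1, a factor of pancreatic beta cells and motor neurons, had 21.5, SIX5 had 21.2, DLX4 had 20.0 and OTX1, a forebrain factor, had 18.5. A middle group ran from 14.5 at NKX3-2, a factor of the developing skeleton, to 10.7 at VAX2, a factor of the ventral eye. It held IRX3 (13.5), DLX1 (13.3), EMX1 (13.2), ISL1 (12.7), BARX2 (12.6), LHX2 (12.5), EN2 (12.4), DLX2 (11.9), LHX6 (11.6) and ISL2 (11.4). The lowest were IRX5 (9.37), LHX4 (8.05), a pituitary factor, and NKX2-1 (7.22), the thyroid and lung factor. The median of the 25 was 13.3, and 6 of the 25 lay above the median of all genes. The peaks measured from 864 bp at LHX6 to 3907 bp at SIX5, with a median of 1935 bp against 2061 bp for all genes, so the members' peaks were close in width and lower in value.

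Of the 25 starts with H3K4me3, 22 also had H3K9Ac within 1 kb (88%, 70.0 to 95.8%), where 97.2% of all genes with H3K4me3 did. All 3 marks were found at 17 of the 25 (68%, 48.4 to 82.8%; all genes 72.9%). The 3 with H3K4me3 and no H3K9Ac past the limits were LHX4, NKX2-1 and IRX5, which were also the 3 with the lowest H3K4me3. LHX6, MSX2, EN2, VAX2 and ISL1 had H3K4me3 and H3K9Ac without H3K4me1 past the limits. All of these except ISL1 had a deposited H3K4me1 interval within 1 kb that did not pass. H3K9Ac at the TSS was highest at IRX4 (23.2), PITX1 (20.5) and GBX2 (17.3), and lowest at BARX2 (7.31). The median H3K9Ac value was 10.7 over 24 members and 13.1 over all genes, and 8 of the 24 lay above the latter. Across the 22 members with both marks the 2 fold enrichments rose together (Pearson's r 0.759, Spearman's rho 0.859), which is a description over genes that share 2 libraries.

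H3K4me1 showed a different order. Its median over 23 members was 5.24, against 4.69 for all genes, and 17 of the 23 lay above that. Within 1 kb of the TSS the highest H3K4me1 values belonged to DLX4 (10.1) and DLX3 (8.98), neighbours on chromosome 17 that act in ectoderm and placenta, and to LHX4 (7.76) and SIX2 (7.28), a factor of kidney progenitors. Farther away, 14192 bp or more downstream of the LHX6 TSS, a peak reached 8.48. GBX2, first for H3K4me3, had an H3K4me1 value of 4.46. LHX9, a gonad and limb factor, and SIX2 had H3K4me1 within 1 kb of the TSS without H3K4me3 or H3K9Ac past the limits. At SIX2 an H3K4me3 interval lay 92 bp upstream of the TSS, just outside the limits at 6.26-fold with a −log10 q-value of 8.81. None of the 3 active marks was found past the limits within 1 kb of the TSS of 28 members (49.1%, 36.6 to 61.7%), against 35.7% of all genes. Among the 28, LHX1, NKX2-5, EMX2 and VAX1 had a deposited interval of at least 1 of these marks there that did not pass.

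Some H3K4me3 peaks next to these genes covered the start of a non-coding neighbour and not that of the homeobox gene. The EN2 peak (12.4) ended 488 bp upstream of the EN2 TSS and held the TSS of EN2-DT. At DLX3, the peak (15.4) ended 1243 bp upstream and held the TSS of ENSG00000248172. At SIX3, a forebrain and eye factor, a peak of 19.8 ended 2013 bp upstream and held the TSS of LINC01833, whereas the interval over the SIX3 TSS itself had 4.52 and did not pass. A peak of 9.82 near NKX3-2 held the TSS of LINC01096, and a peak of 7.14 within VAX2 that of ATP6V1B1-AS1. At 6 starts the same peak covered a member and a non-coding gene: DLX2 with DLX2-DT, SIX5 with DM1-AS, IRX4 with IRX4-AS1, IRX5 with CRNDE, PITX1 with PITX1-AS1 and GBX2 with GBX2-AS1. Histone peaks carry no strand, so the marks of such a pair cannot be told apart. At LHX5, a factor of the early nervous system, a peak of 12.5 lay within the gene, from 3428 to 5074 bp downstream of the TSS, and held no annotated start.

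The other 32 members had no H3K4me3 past the limits within 1 kb, and for most of them the nearest such peak was far away. The median distance was 102126 bp, and 16 of the 32 were over 100 kb from the nearest peak. After DLX3, SIX3 and LHX5, described above, the closest were NKX2-2, a ventral neural and pancreatic factor, at 7415 bp and LHX1, a kidney and head factor, at 10984 bp. The most remote were IRX2, at 756863 bp, and EN1, a midbrain and limb factor, at 375449 bp. All 4 POU genes, which act in sensory and cortical neurons, were among these 32.

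The H3K27me3 counts depended on the limits. Of the 53 deposited H3K27me3 intervals at these genes, 4 passed (7.55%, 2.97 to 17.9%), against 2.81% of the whole list, and they touched 5 members. The highest value was that of LHX2, a factor of the cortex, eye and hair follicle: 4.47, with a −log10 q-value of 4.39, over 13212 bp. This interval began before the annotated 5′ end of the gene, held the TSS of LHX2-AS1 and ended 2281 bp before the canonical LHX2 TSS, which lay in the H3K4me3 peak described above. A 14200 bp interval (3.93, −log10 q-value 3.20) was shared by DLX5 and DLX6, a convergent pair of limb and jaw genes, at chr7:96638824-96653023. The OTX2 interval (3.85, −log10 q-value 3.22) measured 22084 bp and ended 574 bp upstream of the TSS of this forebrain and retinal factor. LHX5 (3.87, −log10 q-value 3.18) had an interval of 18165 bp that also ended upstream of its TSS.

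The limit of 3 on the −log10 q-value fell within a dense run of values. Just inside it stood LHX5 at 3.18. Just outside stood EMX2, a cortical and urogenital factor, at 2.94, then POU4F2 at 2.76, IRX5 and IRX6 both at 2.75, LHX8 at 2.72 and BARX2 at 2.63. Fold enrichments of these 6 ranged from 3.60 at IRX5 to 3.78 at EMX2, all over the limit of 2, so the q-value alone kept them out.

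With all deposited intervals, H3K27me3 was found at 31 of 57 members in the body or within 5 kb of the TSS (54.4%, 41.6 to 66.6%; all genes 23.8%). It was found within 5 kb of the TSS at 30 members (52.6%, 39.9 to 65.0%; all genes 16.7%) and within 1 kb at 13 (22.8%, 13.8 to 35.2%; all genes 9.6%). Apart from the 4 that passed, these intervals have q-values between the limit and the cutoff of 0.1 used for calling, so each of them alone is weak. By family, an interval was present at 4 of 4 POU genes, 6 of 8 LHX genes, 4 of 6 DLX genes, 3 of 4 EMX and OTX genes, 3 of 4 GSX and VAX genes, 3 of 4 BARX and BARHL genes and 2 of 2 MSX genes. It was present at 2 of 6 IRX genes, 1 of 7 NKX genes (NKX2-3), 1 of the 5 from SIX2 to SIX6 (SIX6) and 0 of 2 ISL genes.

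The intervals at members were wide. Their median width was 3299 bp, against 2042 bp for the intervals of all protein-coding genes, and 20 of 53 (37.7%) measured at least 5 kb, against 24.7%. Intervals were collected by overlap with genes of unlike length, as noted above, and the part of gene length in these widths was not tested. The widest, 75867 bp, lay upstream of DLX6 and ended 922 bp before its TSS, and an interval of 37458 bp covered most of LHX8, a factor of cholinergic neurons. In the 10 kb around the TSS, deposited H3K27me3 covered 95.3% at BARX2, 83.1% at DLX5, 72.7% at LHX4, 67.2% at OTX2, 58.0% at DLX4 and 56.3% at LHX8. LHX3 was the sole member with H3K27me3 in the body alone, in a 900 bp interval 8228 bp from the TSS.

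The TSS lay inside a deposited interval at 6 of the 31 members, namely LHX4, LHX8, DLX3, EMX2, BARX2 and POU4F1 (19.4%, 9.19 to 36.3%), near the 23.4% of all genes with an interval. An interval came within 1 kb of the TSS at 41.9% of the 31 and at 40.3% of all such genes. These shares also count genes whose only interval lies in the body, over 5 kb from the TSS. Among genes with an interval within 5 kb, the TSS lay inside one at 20.0% of 30 members (9.51 to 37.3%) and 33.5% of all 3364. For these genes an interval came within 1 kb at 43.3% of members (27.4 to 60.8%) and 57.6% of all. Among these same genes, intervals lay on both sides of the TSS within 5 kb at 9 of 30 members (30%, 16.7 to 47.9%). The share of all 3364 was 19.9%. All of these shares of the 3364 genes lie inside the members' Wilson intervals. Of 32 other homeobox genes with H3K27me3 within 5 kb, 18.75% had the TSS inside an interval, a share near that of the members. Over all 57 members the share covered by H3K27me3 was 10.5% at the TSS and averaged 29.2% from 2 to 10 kb upstream and 17.0% from 2 to 10 kb downstream. It was highest 4750 bp upstream, where 20 members (35.1%) were covered. For all genes the curve was flat, with 5.58% at the TSS, 5.82% upstream and 5.56% downstream. The upstream excess was seen both at members with H3K4me3 at the TSS (22.5% upstream, 5.82% downstream, n = 25) and, to a lesser degree, at those without (34.4% upstream, 25.8% downstream, n = 32). The members' starts were also GC-rich, with a median of 65.6% in the central 1 kb, and the part of GC content in the dip was not tested.

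**Figure D3:**
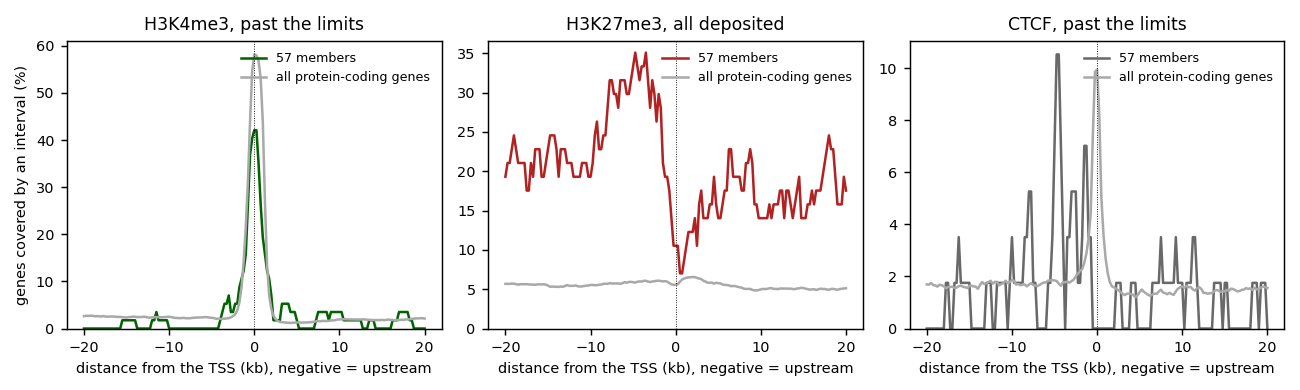
Percentage of genes covered by an interval (y axis) at each distance from the TSS (x axis, kb, negative is upstream, steps of 250 bp), for the 57 members (coloured or dark grey lines) and all protein-coding genes (light grey). H3K27me3 (all deposited intervals) at members fell to 10.5% at the TSS and reached 35.1% at 4750 bp upstream, and CTCF (peaks past the limits, as for H3K4me3) at members was 0 at the TSS and reached 10.5% at 4750 bp upstream.

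H3K27me3 and H3K4me3 met at a few of these genes. Past the limits, 0 of 57 members had both within 1 kb of the TSS, whereas 77 of all 20163 genes did (0.382%). With all deposited H3K27me3, 4 members had both, namely LHX4, LHX6, DLX4 and BARX2 (7.02%, 2.76 to 16.7%). So did 8 of 79 other homeobox genes (10.1%), a higher share than that of the members, and 444 of all 20163 genes. H3K27me3 alone was found at 9 members (15.8%, 8.54 to 27.4%, against 7.40% of all genes and 12.7% of 79 other homeobox genes). Of these 9, OTX2, DLX5, DLX6 and LHX5 were described above and LHX8, DLX3, EMX2, GSX2 and POU4F1 were the others. Within 5 kb, both were found at 13 members (22.8%, 13.8 to 35.2%), at 11.4% of the other homeobox genes and at 4.69% of all genes. A member with H3K4me3 at its TSS had deposited H3K27me3 within 5 kb in 11 of 25 cases (44%, 26.7 to 62.9%), where the share over all genes with H3K4me3 was 7.45%. A member without it did so in 19 of 32 cases (59.4%, 42.3 to 74.5%), where the share over all genes without H3K4me3 was 30.1%.

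Seen peak by peak, 6 of the 33 H3K4me3 peaks at members overlapped a deposited H3K27me3 interval (18.2%, 8.61 to 34.4%), against 3.99% of all 12749 H3K4me3 peaks. The H3K4me3 peaks of LHX4 (2652 bp) and BARX2 (1361 bp) lay wholly inside H3K27me3 intervals of 8117 and 14268 bp. A second MSX2 peak, ending 2887 bp upstream of the TSS with a fold enrichment of 9.42, lay inside an interval of 3851 bp. At EMX1 and IRX5 the marks overlapped by 449 and 444 bp, and at DLX3 by 7 bp. At LHX6, DLX4, MSX1, VAX2 and PITX1 the H3K27me3 lay beside the TSS peak without touching it. From these lists, marks on the same nucleosomes and marks on different alleles or cells of the line cannot be told apart.

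**Figure D4:**
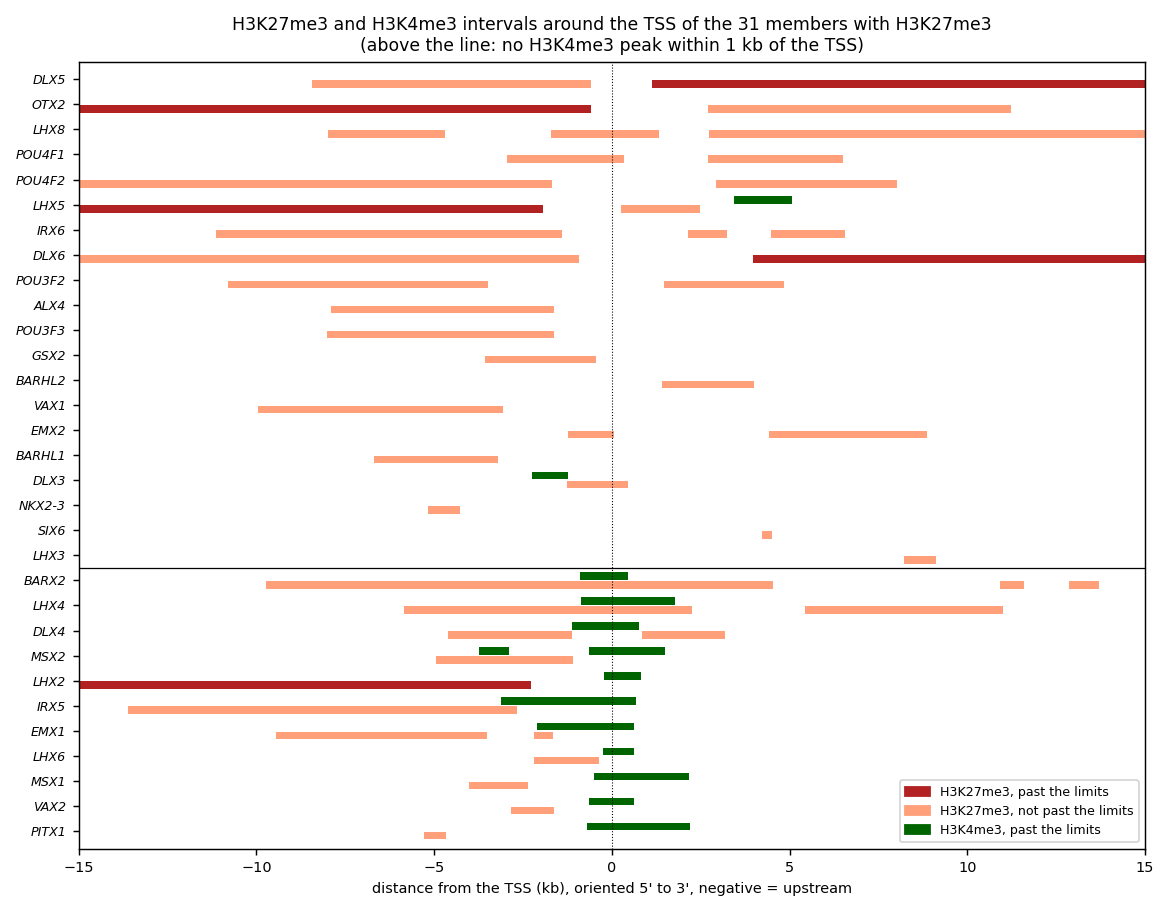
Positions of H3K27me3 intervals (dark red past the limits, pale not past) and H3K4me3 peaks past the limits (green) relative to the TSS (x axis, kb, 5′ to 3′, negative is upstream, clipped at 15 kb on each side) for the 31 members with H3K27me3, 1 row per gene. The 11 genes under the line had H3K4me3 within 1 kb of the TSS; the TSS at 0 lies inside an H3K27me3 interval at 6 genes.

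H3K36me3 intervals were few at the homeobox genes. Of 22 deposited intervals 0 passed the limits, where 0.225% of the whole list did, and they lay at 14 members (24.6%, 15.2 to 37.1%; all genes 59.4%). The highest values were 4.86 at MSX1 (−log10 q-value 5.60, from 2206 to 5274 bp downstream of the TSS) and 4.44 at PITX1, which also stood near the top for H3K4me3. Of the 14 members, 13 had H3K4me3 at the TSS. The exception was LHX3, where the interval of 22209 bp lay upstream of the gene, 461 bp or more from its TSS. At GBX2 the H3K36me3 interval likewise lay upstream, starting 704 bp from the TSS, in the direction of GBX2-AS1. The SIX5 intervals also lay upstream, 2154 bp or more from the TSS. The gene body itself held an H3K36me3 interval at 11 members (19.3%, against 56.3% of all genes). Among members with H3K4me3 at the TSS the share was 52% (33.5 to 70.0%), against 86.8% of all genes with H3K4me3, and the part of the short gene bodies noted above was not tested.

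Past the limits, CTCF peaks lay near these genes and not over their starts. The 23 CTCF peaks past the limits fell at 20 members, and 0 of 57 starts lay under a peak, which allows a share of up to 6.31%, against 9.95% of all genes. The 79 other homeobox genes outside HOX were similar, with 1 start under such a peak (1.27%). With all deposited CTCF intervals, 6 starts of members lay under one (10.5%), namely those of DLX4, IRX4, IRX5, MSX1, BARX2 and GBX2, against 19.7% of all genes. Within 5 kb of the TSS, 16 members had a CTCF peak (28.1%, 18.1 to 40.8%), close to the 24.1% of all genes. Of those 16, 14 had it wholly upstream (87.5%, 64.0 to 96.5%) and 2 downstream, SIX4 and IRX3. Among all 4858 genes with CTCF within 5 kb, 39.0% had a peak wholly upstream and 27.7% wholly downstream. Of these 4858, 2006 had a peak over the TSS, which counts on neither side, so their shares and those of the members differ in base. The side of the peaks was looked at after the values were seen.

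The strongest CTCF peak, with a fold enrichment of 23.5, lay from 4534 to 5424 bp upstream of EMX2. DLX3 had 22.6 in a wide peak of 2501 bp that held the TSS of ENSG00000248172, DLX2 had 19.6 from 682 to 1537 bp upstream, and SIX5 had 19.6 from 664 to 1641 bp upstream. VAX2, one of the longest of these genes, held 3 CTCF peaks in its body, the highest of 18.6. Several others were 4 to 5 kb upstream: NKX3-2 (11.7), NKX6-1 (11.6), SIX2 (14.3) and POU3F3 (12.4). At BARHL2 (14.1) the peak began 3835 bp upstream, and at ISL1 (8.03) and ISL2 (7.46) it began 2323 and 2431 bp upstream. The lowest value past the limits was 6.80, at NKX2-1. The core pattern, printed as found at DLX2 and DLX3, was in 2 of the 23 peaks (8.70%, 2.42 to 26.8%), against 22.4% of all 24536 CTCF peaks, and in 0.591% of all CTCF peaks moved by 10000 bp. Absence of a match says only that the pattern is not in the peak.

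The starts of the homeobox genes were rich in CpG whether or not they carried H3K4me3. In the 1 kb centred on the TSS, the median CpG observed over expected was 0.795 (range 0.517 to 1.11), and 50 of 57 members exceeded 0.6 (87.7%), against 65.9% of all genes. Members with H3K4me3 had a median of 0.798 and members without it 0.776. The corresponding medians of all genes were 0.799 and 0.319. Among the 26 members over 0.6 that lacked H3K4me3, 16 had deposited H3K27me3 within 5 kb (61.5%, 42.5 to 77.6%), against 34.4% of the 2261 genes of that kind. Over all CpG-rich starts, 24 of 50 members had H3K4me3 within 1 kb (48%, 34.8 to 61.5%), against 83.0% of all genes over 0.6.

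A last group carried no mark at all. NKX2-2, NKX6-2, IRX1, IRX2, EN1, GSX1 and BARX1 had no interval in any of the 6 lists (7 of 57, 12.3%, against 7.65% of all genes), and 19 members had none past the limits (33.3%, against 18.1%). The starts of these 7 were more CpG-rich than most, with observed over expected values from 0.797 at NKX2-2 to 1.11 at NKX6-2 and a median of 0.938. Their GC content ranged from 55.6% to 78.4%. The lists do not say whether reads could be mapped there, so a lack of marks and a lack of reads cannot be told apart. GBX2 and NKX6-2, whose promoters are printed above, had CpG observed over expected values of 0.906 and 1.11. GBX2 had the highest H3K4me3 of the members, whereas NKX6-2, like other members, had no H3K4me3 interval.

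**Figure D5:**
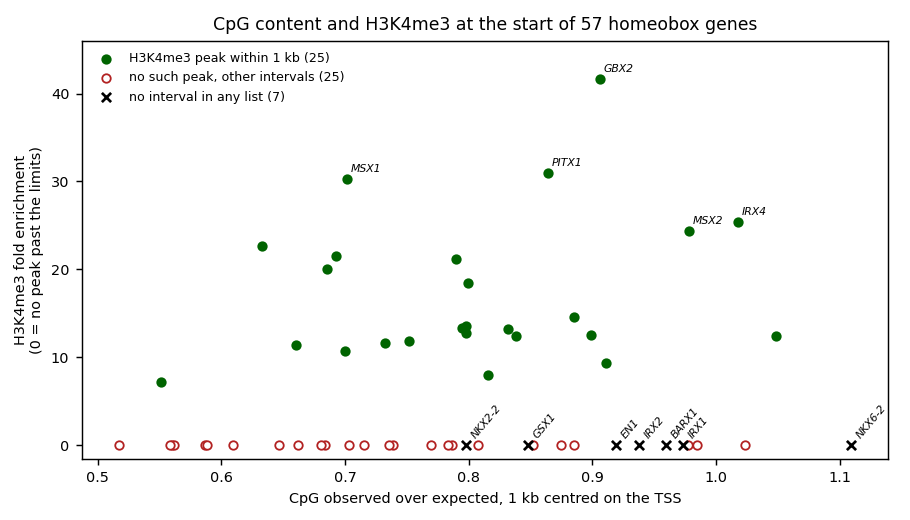
CpG observed over expected in the 1 kb centred on the TSS (x axis, ratio) against the fold enrichment of H3K4me3 within 1 kb (y axis, linear, 0 where no peak passed the limits) for the 57 members. The 25 green points had a peak, up to 41.6 at GBX2; the 7 crosses are genes with no interval in any list, at ratios from 0.797 to 1.11.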

How the data were processed

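For HCT116 cells, 6 deposited ChIP-seq peak lists were used, 1 per antibody. BWA 0.7.12 was the authors' aligner, hg19 the build, and MACS2 with a broad cutoff of 0.1 the peak caller, run per library. The submitters' processing notes also list SAMtools 0.1.19, bcl2fastq 2.20.0.442 and MACS 1.4.2, which differs from the MACS2 of the methods. The notes differ on single or paired reads. The fold enrichment the authors deposited is a linear ratio over background. Whole peaks carry the −log10 q-value and −log10 p-value that the authors deposited, and the deposited score column was not used.

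Limits followed the methods, which name none for CTCF, so it was given those of H3K4me3. Genes and TSS (canonical transcript) came from GENCODE 44 on hg19, and sequences from hg19. Overlap required 1 bp. The overlap code was tested on simulated peaks and checked against bedtools 2.31.1, with 0 differing genes. CpG content used non-N bases. Tools were Python 3.11.15, pandas 2.3.3, numpy 2.4.6, matplotlib 3.10.9, scipy 1.17.1, samtools 1.23.1 and pyfaidx 0.9.0.4.

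The members and lists were chosen with earlier results of these data known. All 57 members are named. Other genes are named where their TSS lies in a peak of a member, and of 79 other homeobox genes the 3 highest for H3K27me3 and for H3K4me3. Alternatives were all deposited peaks, other limits, each limit alone, other windows, a 500 bp overlap, every coding transcript start, and shared peaks counted once. With 1 library per mark no test was made. Wilson intervals cover counting error only, and depth, which sets which peaks are called, is unknown.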

Additional observations from a re-analysis of the deposited data

How the results depend on the processing

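No paired analysis was possible because there is only 1 sample in every group, and leaving out a replicate was likewise not run. Of 94 recomputed counts of members, 76 stayed within 1.5 times the reported one and 18 moved. The moves under other limits and windows follow from which intervals and positions enter.

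With all deposited intervals, members with the mark in the body or within 5 kb rose from 5 to 31 for H3K27me3 and from 0 to 14 for H3K36me3. Near the TSS, members with both H3K4me3 and H3K27me3 rose from 0 to 4, those with H3K27me3 alone from 1 to 9, and those with neither fell from 31 to 20. The fold limit alone gave 31 for H3K27me3, 4 with both marks and 9 with H3K27me3 alone. Swapping the limits between both groups of marks gave 8 for H3K4me1 in place of 29, 0 for H3K27me3 in place of 5, 4 for H3K36me3 in place of 0, and 0 with H3K27me3 alone. With 1 kb around the TSS in place of the region, H3K27me3 gave 1 and CTCF 2 in place of 20, and with the gene body alone CTCF gave 6. With 5 kb for the classes, 2 members had both marks and 3 had H3K27me3 alone. With every coding transcript start, 1 member had both.

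Counts for H3K4me3 and H3K9Ac stayed within 1.5 times under every alternative run. The H3K27me3 and H3K36me3 counts rest on weak intervals near the calling cutoff, and without read counts the depth that limits them is unknown.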

Other observations

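The 79 other homeobox genes outside HOX, among them PBX, MEIS, ONECUT, PHOX2 and HMX genes, were marked at shares near those of the members. H3K4me3 past the limits was found in the body or within 5 kb of the TSS at 35 of them (44.3%, against 49.1% of members), H3K4me1 at 47, H3K9Ac at 36, CTCF at 30, H3K27me3 at 5 and H3K36me3 at 0. Deposited H3K27me3 was found there at 40 (50.6%, against 54.4% of members). In narrower windows some shares lay further apart. CTCF past the limits was in the body at 32.9% of them and 10.5% of members. Deposited H3K27me3 was within 5 kb of the TSS at 40.5% of them and 52.6% of members. The highest H3K4me3 in the body or within 5 kb of the TSS belonged to PITX3 (33.8), a lens and dopaminergic neuron factor. HHEX (33.7), a factor of liver and endoderm, and MNX1 (30.6), a factor of motor neurons and pancreas, followed. The PITX3 peak lay over 1 kb from its TSS, since the highest value of these genes within 1 kb was 33.7. The values of PITX3, HHEX and MNX1 lie below that of GBX2 and near those of PITX1 and MSX1. The highest H3K27me3 belonged to ONECUT2 (4.31), BSX (4.02) and CUX2 (3.92). CTCF within 5 kb lay wholly upstream at 8 of 14 (57.1%, 32.6 to 78.6%) and wholly downstream at 7 of these genes, beside 14 and 2 of 16 members, and the difference was not tested.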
